A study of Rattus norvegicus with 14 samples.

Results

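Among the transcription start sites (TSSs) that rat sciatic nerve uses near promoter marks and SOX10 binding, 1420 of 4993 (28.4%) lay at least 500 bp from the SOX10 ChIP-Seq peak listed beside them. They are called distant TSSs here and were set against the 2580 TSSs (51.7%) that overlapped their peak, with the 993 TSSs (19.9%) at gaps of up to 499 bp kept apart as near TSSs. The gap is the number of bases between the TSS cluster and the edge of the peak, so that this class was cut from the table by position. The table itself holds TSSs that the study defined by their reads in nerve. TSS use was measured by Tn5Prime, in which a read begins where a transcript begins, and is given in RPM, the read count scaled to a fixed depth of the whole library.

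SOX10 is the transcription factor that Schwann cells need at every stage, from their origin in the neural crest to the making of myelin, the membrane sheath that insulates axons. It binds promoters as well as enhancers within and between genes, and Egr2 (Krox20) joins it at many myelin genes. H3K4me3, a methyl mark on histone H3, covers active promoters and often spreads into the first part of the transcribed gene. Raised cAMP is the classical signal that drives cultured Schwann cells toward the myelinating state.

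The 14 libraries came from 5 groups. The 2 nerve libraries were from independent wild-type adult rats of 6 to 9 months, and whole nerve holds fibroblasts, endothelial, perineurial and immune cells beside Schwann cells. Primary rat Schwann cells gave 3 libraries of vehicle controls and 3 of cells treated with 250 μM of the cAMP analogue CPT-cAMP for 3 days, all in 5% serum and from separate RNA isolations. S16, an immortalised rat Schwann cell line, gave 2 libraries of parental cells and 4 of ΔSOX10 cells, both in 10% serum. Each ΔSOX10 library is 1 clonal line edited at Sox10 with CRISPR/Cas9, with 2 guide RNAs used over the 4 lines, while the parental libraries are repeat RNA samples of a single line. Library totals ran from 29895599 to 79940274 reads, and 3 reads, the floor used for folds, were worth between 0.0375 and 0.1 RPM.

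Sox10 itself is a distant gene by this rule, since its TSS at chr7:120396387-120396450 (rn5, minus strand) lay 1788 bp upstream of the listed peak. It was read at 48.6 and 42.4 RPM in nerve, at 136, 149 and 140 RPM in control cells and at 123, 117 and 137 RPM with cAMP. Parental S16 cells held 90.7 and 77.5 RPM and the clones 1-1, 1-2, 2-1 and 2-2 held 0.0255, 0.0254, 0 and 0.114 RPM. All clones were thus far below both parental libraries, in the direction of their label, with a log2 fold change of −6.35 ± 0.368 (SE, limma adjusted p = 1.57e-05), and the cAMP and control levels overlapped (−0.17, limma adjusted p = 0.353).

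The distant TSSs lay a median of 1339 bp from the peak (quartiles 916 and 2089 bp), and the widest gap was 8929 bp. With direction read along the gene's strand, 1119 (78.8%) lay downstream of the peak and 301 upstream. They were narrow: the median width was 26 bp, against 52 bp for near and 72 bp for overlapping TSSs, and 486 of them (34.2%) spanned at most 10 bp, against 7.48% of the overlapping ones. The narrow shape belonged mostly to the downstream members, with a median of 22 bp against 51 bp upstream of the peak. Their H3K4me3 peaks were wide, with a median of 3084 bp against 1910 bp for overlapping TSSs, and 910 distant TSSs (64.1%) overlapped that peak while the rest lay within 1 kb of it.

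By gene, the distant TSSs fell to 653 symbols, 441 of which had a single distant TSS and 44 had at least 5, and 71 TSSs carried no symbol. In 307 genes an overlapping TSS was listed too, and 771 distant TSSs (54.3%) belonged to these genes. That was so for 700 of 1119 downstream members (62.6%) and for 71 of 301 upstream members (23.6%). Long series were in Malat1 (52 distant TSSs) and Neat1 (37), both nuclear long non-coding RNAs, in Cnp (24), a myelin-associated phosphodiesterase, Vim (20), the intermediate filament vimentin, and Igfbp6 (20), which binds insulin-like growth factors. TSSs of one gene share its RNA and are not independent of each other. The listed peak was not always the only one close by, since a distant TSS of each of Qk, Ddit3 and Nr4a1 overlapped a peak listed for another TSS and a further Nr4a1 TSS lay 406 bp from one.

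Promoter sequence was read from RefSeq (GRCr8) for the 19 named genes that matched. The stretches shown are the 3 that held a SOX core, of Mag, Aatk and Dusp15, beside those of Pmp22 and Egr2, which have upstream distant TSSs and held none, a choice made after the letters were seen. The other 14, such as those of Cav1, Ddit4, Entpd2 and Cited2, held none either. The 250 bases before the RefSeq start of each gene are printed 5′ to 3′ on the gene's strand, and the start was not matched to the rn5 position of the measured TSS. Capitals mark the SOX core letters ACAAAG or ACAATG, searched on both strands, where a match on the other strand reads CTTTGT or CATTGT. The Pmp22 stretch is chr10:48294682-48294931 (plus strand), Mag is chr1:95291045-95291294 (minus), Aatk is chr10:105825619-105825868 (minus), Dusp15 is chr3:161879251-161879500 (minus) and Egr2 is chr20:21054442-21054691 (minus).
Pmp22: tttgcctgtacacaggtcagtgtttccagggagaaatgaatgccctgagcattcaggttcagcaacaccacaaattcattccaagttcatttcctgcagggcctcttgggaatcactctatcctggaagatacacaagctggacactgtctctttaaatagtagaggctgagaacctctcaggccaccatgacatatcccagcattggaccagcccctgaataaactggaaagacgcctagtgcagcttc
Mag: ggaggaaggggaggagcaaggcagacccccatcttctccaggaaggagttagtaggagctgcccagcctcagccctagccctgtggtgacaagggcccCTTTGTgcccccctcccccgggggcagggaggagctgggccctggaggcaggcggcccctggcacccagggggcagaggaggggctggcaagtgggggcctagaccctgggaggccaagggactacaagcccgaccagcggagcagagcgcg
Aatk: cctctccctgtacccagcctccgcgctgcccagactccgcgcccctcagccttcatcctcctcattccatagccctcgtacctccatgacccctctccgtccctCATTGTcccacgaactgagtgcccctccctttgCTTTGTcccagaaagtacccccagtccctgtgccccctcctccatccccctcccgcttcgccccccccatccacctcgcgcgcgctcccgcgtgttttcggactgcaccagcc
Dusp15: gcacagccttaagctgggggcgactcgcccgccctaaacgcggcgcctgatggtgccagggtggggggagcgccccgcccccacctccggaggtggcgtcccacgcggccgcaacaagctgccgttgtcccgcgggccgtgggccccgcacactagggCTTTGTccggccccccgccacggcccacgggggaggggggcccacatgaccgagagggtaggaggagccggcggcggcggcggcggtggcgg
Egr2: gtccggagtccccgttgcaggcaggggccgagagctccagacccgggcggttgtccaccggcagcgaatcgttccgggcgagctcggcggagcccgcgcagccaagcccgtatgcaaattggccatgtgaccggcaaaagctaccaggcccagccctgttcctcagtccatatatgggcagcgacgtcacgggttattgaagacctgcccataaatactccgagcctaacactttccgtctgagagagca
The Pmp22 stretch held neither core and 1 CG dinucleotide, Mag held 1 core and 6 CG, Aatk 2 cores and 16 CG, Dusp15 1 core and 30 CG, and Egr2 no core and 21 CG. A core was thus held by 15.8% of the 19 named genes. Of 27457 RefSeq promoter stretches of this length, 24.8% held at least 1 of the cores and 8.38% held TATAAA. Of the 510 distant-TSS genes with a stretch, 15.7% held a core, and so did 15.9% of the 1774 genes with an overlapping TSS. Among 31 matched genes with a distant TSS that fell with SOX10 loss (below), 10 held a core (32.3%) and none held TATAAA. For distant TSSs that rose with cAMP, 16 of 56 matched genes held a core (28.6%), and for those that fell, 10 of 44 (22.7%). Among 12 matched genes with a distant TSS that rose with SOX10 loss, 6 held TATAAA (50%). A match describes letters only, and these shares carry no test.

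In nerve the distant TSSs were lower than the overlapping ones, with medians of 3.89 and 10.9 RPM over the mean of both nerves and 6.05 RPM for near TSSs. In culture the distance widened. The distant median was 0.962 RPM in control cells, 1.11 RPM with cAMP, 0.94 RPM in parental and 0.54 RPM in ΔSOX10 S16 cells, whereas the overlapping medians were 20.9, 20.6, 16.5 and 13.4 RPM. No culture library reached either nerve: the nerve libraries had distant medians of 3.65 and 4.92 RPM, the control libraries 0.735, 0.634 and 0.836, the cAMP libraries 0.863, 1.09 and 1.13, the parental libraries 0.769 and 0.959 and the clones 0.127, 0.356, 0.219 and 0.342 RPM. The same was seen in the share of distant TSSs above 1 RPM, 83.7% and 96.1% in the nerves and between 40.4% and 50.8% in every culture library. Distant TSSs took 6.72% and 7.55% of all reads in nerve and between 3.64% and 5.21% in culture.

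**Figure D1:**
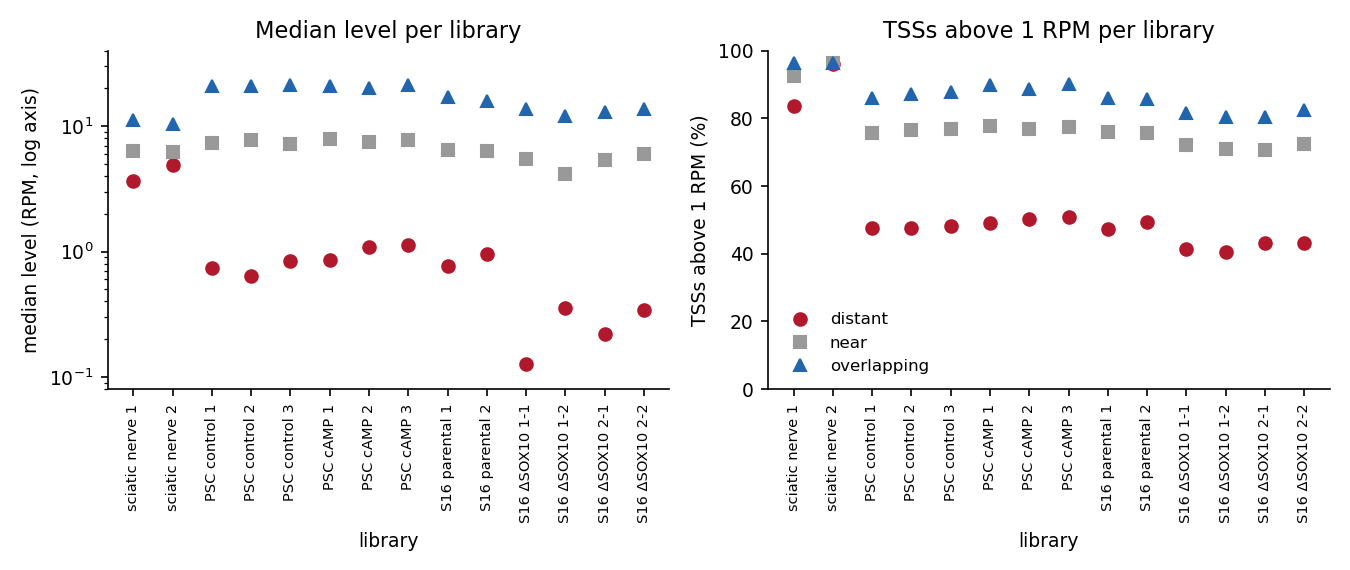
Level of distant, near and overlapping TSSs in each of the 14 libraries (PSC, primary Schwann cells): the left panel gives the median in RPM on a log axis and the right panel the percent of TSSs above 1 RPM, with 1 point per class and library. Distant medians are the lowest of the classes in every library, 3.65 and 4.92 RPM in the nerves and at most 1.13 RPM in culture.

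Since all TSSs of the table, of every class, were defined by their reads in nerve, nerve was not tested against culture. The nerve and S16 libraries were sequenced on a HiSeq and the primary cell libraries on a NovaSeq, and the part of the instrument in these levels was not tested. In whole nerve, fewer cells of a type and less RNA per cell cannot be told apart. Below 1 RPM in all 12 culture libraries were 296 distant TSSs (20.8%), 80 near TSSs (8.06%) and 69 overlapping TSSs (2.67%). Igfbp6 gave 19 of the 296, Malat1 17, Hspa2 (a heat shock 70 protein) 9, and Fxyd1 (phospholemman, a regulator of the sodium pump) and Neat1 8 each.

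On either side of the 500 bp limit, the closest members inside were TSSs of Tmpo at 500 bp, Hcfc1r1 at 502 bp and Ndufa11 at 504 bp, with nerve means of 5.67, 5.2 and 269 RPM and control means of 21.5, 2.49 and 387 RPM. Just outside were Dbi at 498 bp and 2 TSSs without a symbol at 498 and 496 bp, with nerve means of 1118, 7.59 and 11.2 RPM and control means of 2130, 6.67 and 0.998 RPM.

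The highest distant TSS in nerve belonged to Pmp22, a tetraspan protein of compact myelin whose dosage causes inherited neuropathy. At chr10:49316968-49317054, 1546 bp upstream of the peak, it gave 34274 and 38188 RPM in nerve but 534 and 514 RPM in parental S16 cells and 0, 1.82 and 2.04 RPM in control cells. The neighbouring Pmp22 TSS that overlaps the peak (chr10:49319494-49319573) averaged 5975 RPM in nerve and 412 RPM in control cells, so that the order of these TSSs was opposite in nerve and in cultured primary cells. Distant TSSs held 84.7% and 87.1% of the Pmp22 reads in nerve and between 1.53% and 10.9% in the culture libraries.

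The next highest nerve levels among distant TSSs were of several kinds. Sparc, a matricellular glycoprotein, was high everywhere, at 4174 and 3962 RPM in nerve and between 3878 and 8863 RPM in culture. S100a10, the partner of annexin A2, gave 1256 and 1180 RPM in nerve and 2669, 2514 and 2634 RPM in control cells. Crip1, a small LIM-domain protein, gave 929 and 1257 RPM in nerve, 693, 661 and 663 RPM in control cells and no more than 0.0259 RPM in any S16 library, so this TSS was in use in the primary cells and not in the line. The highest Igfbp6 TSS gave 678 and 1372 RPM in nerve and at most 0.0175 RPM in culture except for 1.92 RPM in 1 parental library. Fth1, the ferritin heavy chain, gave 733 and 1211 RPM in nerve and between 28.2 and 221 RPM in culture.

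Of the 307 genes with TSSs of both classes, those that summed to at least 5 RPM in a library were used, 293 and 299 in the nerves and 244 to 281 in culture. The share of a gene's reads that started at its distant TSSs had a median of 7.86% and 14.7% in the nerves and between 0.819% and 1.57% in the 12 culture libraries. Single genes are given as the share of all their reads in the table, near TSSs included. Vim started 39.4% and 44.3% of its reads at distant TSSs in nerve and between 5.49% and 7.65% in culture, and Cnp 26.9% and 28.2% against 4.55% to 10.2%. Aldoa, a glycolytic aldolase, and Gapdh, another enzyme of glycolysis, have no overlapping TSS and are not among the 307 genes. Against their near TSSs, Aldoa started 43% and 41.1% of its reads at distant ones in nerve and 4.1% to 8.88% in culture, and Gapdh 30.2% and 38.8% against 5.86% to 12%. Eef1a1, a translation elongation factor, kept 90.9% to 96.8% of its reads at distant TSSs in all 14 libraries. In Cd63, a tetraspanin, the nerve shares of 59.8% and 68.7% overlapped with the 50.6%, 62% and 56.3% of the cAMP libraries.

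**Figure D2:**
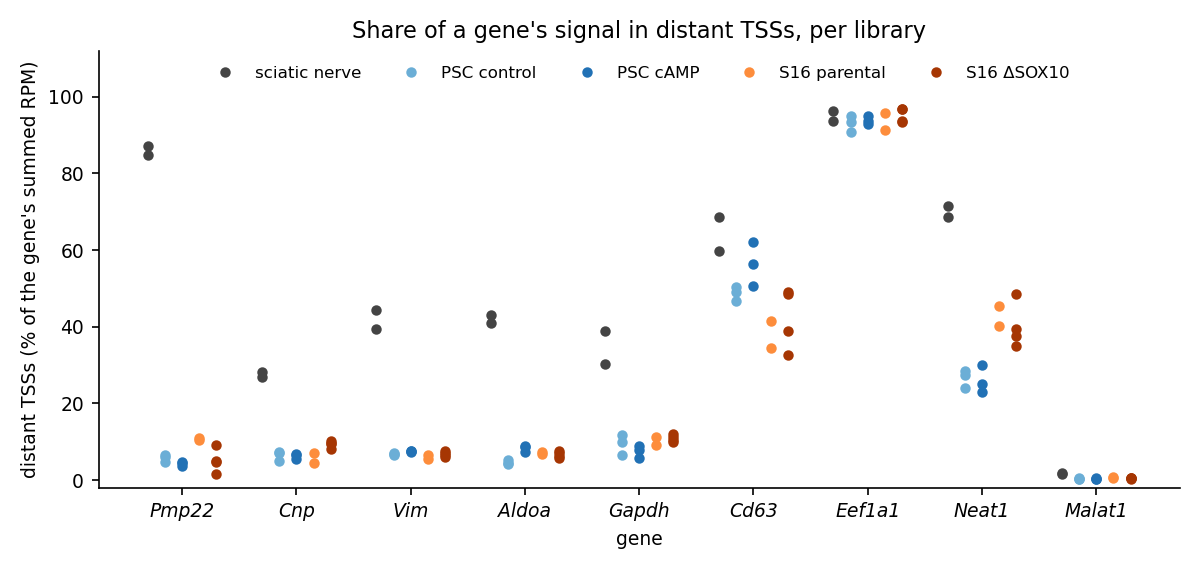
Share of a gene's summed RPM that begins at distant TSSs (percent, y axis) for 9 genes with several distant TSSs (x axis), with 1 point per library and a colour per group. For Pmp22, Vim and Aldoa the nerve libraries stand above all culture libraries, and Eef1a1 is above 90% in all 14.

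The first comparison asked which distant TSSs respond when cAMP pushes primary Schwann cells toward myelination. Of the 1420, 854 were above 1 RPM in at least 2 of the 6 libraries and were tested, 99 of them through 1 group alone (31 of the 189 calls below), and 566 were too low. At a limma adjusted p under 0.05 over all 4119 tested TSSs, 124 rose (14.5%, in 78 genes), against 12.9% of all tested TSSs, and 65 fell (7.61%, in 57 genes), against 11%. The rises were unevenly spread over genes: without the gene that had the most of them, 102 of 828 rose (12.3%), so the share that rose is not read as above the background. That gene was not taken out of the 12.9%. Among overlapping TSSs, 13.3% rose and 12.1% fell. The median log2 fold change was 0.19 for distant, −0.01 for overlapping and 0.02 for all tested TSSs. The median SE was 0.554 for distant and 0.284 for overlapping TSSs, and a call takes a larger change where the SE is larger. Of the called distant TSSs, 119 of the 124 and 64 of the 65 had groups that did not overlap. Calls with so few libraries mostly have separate groups, and the share over all called TSSs is not given, so this is not read as further support. By side of the peak, 24.2% of 182 tested upstream TSSs rose and 16.5% fell, against 11.9% and 5.21% of 672 downstream ones. With 1 TSS per gene, 16% of 424 distant TSSs rose and 11.3% fell, against 13.2% and 13% of 2125 overlapping TSSs.

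**Figure D3:**
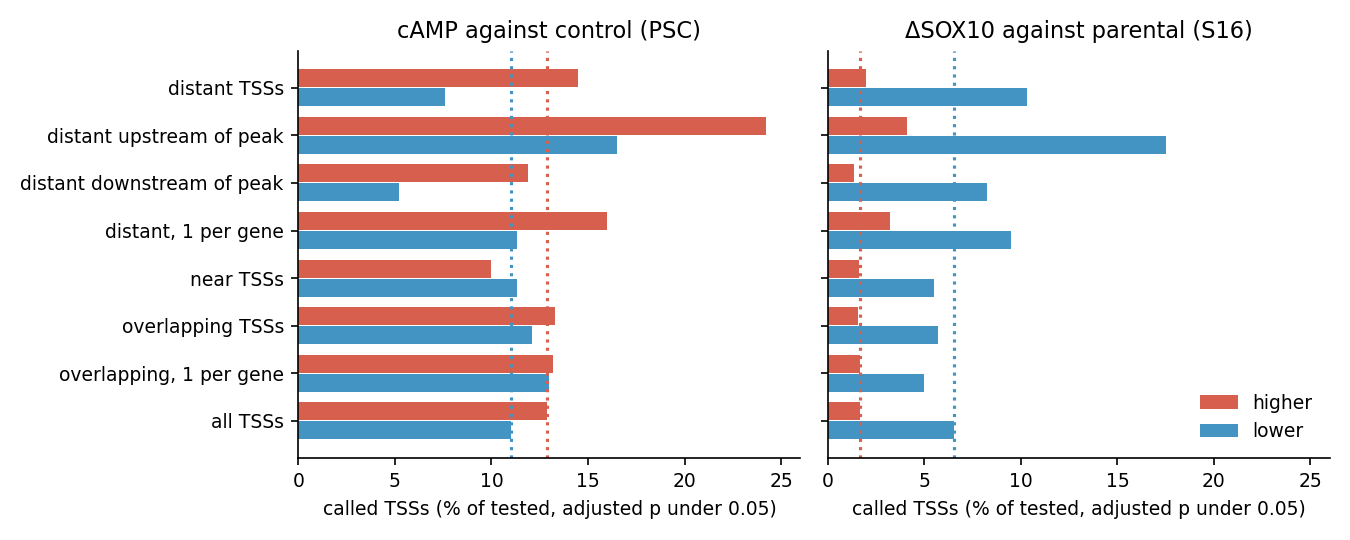
Percent of tested TSSs (x axis, from 0) called higher or lower at a limma adjusted p under 0.05 in each comparison, by class, by side of the peak and with 1 TSS per gene (y axis). Dotted lines mark the share over all tested TSSs, and the longest bars are those of distant TSSs upstream of the peak, 24.2% higher with cAMP and 17.5% lower with SOX10 loss.

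The distant TSSs with the largest rises included core myelin genes. Mag, the myelin-associated adhesion glycoprotein, started at chr1:90516247-90516338 (minus strand), 1448 bp upstream of the peak, with 0, 0.0153 and 0 RPM in control and 27.2, 39.2 and 25.4 RPM in cAMP libraries. Against a control at the floor that is at least 586-fold higher (limma adjusted p = 4.65e-08), and the groups were far apart. The nerves held 20 and 21.1 RPM, no more than the treated cells. Egr2, the zinc finger factor that switches on myelin genes, had a TSS of 4 bp at chr20:24556234-24556237, 2835 bp upstream, read at 0.0175, 0.0153 and 0 RPM in control and 34.6, 35 and 32.5 RPM in cAMP libraries (at least 652-fold higher, limma adjusted p = 1.65e-08). The nerves, at 28.1 and 4.72 RPM, disagreed with each other more than the treated cultures did.

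Dusp15, a dual-specificity phosphatase, behaved alike at chr3:154831401-154831536, with 0, 0.0306 and 0.0194 RPM in control and 41.1, 43.9 and 23.8 RPM in treated cells (at least 694-fold higher, limma adjusted p = 2.32e-08). Aatk, a membrane kinase of neural tissue, rose at chr10:108799089-108799284 from 7.39, 1.02 and 0.447 RPM to 126, 85.9 and 110 RPM, a log2 fold change of 5.20 ± 0.458 (SE, limma adjusted p = 1.17e-08). The control libraries spread over more than a decade, and all lay below every treated one. Ddit4, a stress-induced brake on mTORC1, rose at chr20:31317133-31317145 from 3.76, 8.07 and 2.2 RPM to 246, 261 and 272 RPM (5.65 ± 0.284, SE, limma adjusted p = 7.84e-13), far above the 26 and 8.86 RPM of nerve. Tmem88, a membrane inhibitor of Wnt signalling, rose at chr10:55742234-55742304 from 5.85, 1.85 and 2.82 RPM to 135, 151 and 148 RPM (5.11 ± 0.301, SE, limma adjusted p = 1.34e-11) and was 0 in all 6 S16 libraries.

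The largest falls were led by Fxyd1 and Cited2. The Fxyd1 TSS at chr1:90642452-90642474, 926 bp downstream, went from 24, 34.8 and 32.2 RPM to 0, 0.0178 and 0.0147 RPM (at least 674-fold lower, limma adjusted p = 4.46e-08), although nerve held 642 and 678 RPM. Treated cells therefore stood further from nerve at this TSS than controls did. Cited2, a co-regulator that binds CBP and p300, fell at chr1:14515616-14515624 from 460, 459 and 486 RPM to 14.3, 26.7 and 18.9 RPM (−4.53 ± 0.175, SE, limma adjusted p = 6.7e-15), and nerve was lower still at 7.29 and 8.1 RPM. Rhoc, a small GTPase that acts on actin, fell at chr2:226690987-226691117 from 990, 951 and 997 RPM to 105, 112 and 130 RPM (−3.08 ± 0.0951, SE, limma adjusted p = 1.69e-16), toward 56.7 and 71 RPM in nerve. Cadm1, a cell adhesion molecule, fell at chr8:50460864-50460899 from 730, 700 and 648 RPM to 102, 92.9 and 85.3 RPM (−2.88 ± 0.102, SE, limma adjusted p = 2.1e-15), with 10.2 and 4.61 RPM in nerve. For Cited2, Rhoc and Cadm1 the treated cells lay between control cells and nerve. Mgst2, a microsomal glutathione transferase, fell at chr2:160180714-160180879 from 111, 97 and 122 RPM to 5.38, 8.77 and 12 RPM (−3.57, limma adjusted p = 5.69e-10), and Ehbp1l1, a protein of membrane traffic, at chr1:228017340-228017382 from 34.9, 41.7 and 26.8 RPM to 5.22, 0.999 and 0.587 RPM (−3.69, limma adjusted p = 3.41e-06).

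Of the gene lists, the myelin and mature Schwann cell genes had distant TSSs in 13 of their 20 genes in the table, 99 TSSs in all. Of these, 74 were tested in 11 genes and 32 rose in 8 of the genes, unevenly spread over them, while 2 fell, with a median log2 fold change of 1.01, and among the overlapping TSSs of the list 23 of 42 rose and 1 fell. Dhh, the hedgehog ligand by which Schwann cells organise the perineurium, rose at chrX:115088135-115088273 from 13.6, 11.3 and 11.2 RPM to 96.1, 85.9 and 91.7 RPM (2.83, limma adjusted p = 1.27e-09). Lpar1, a lysophosphatidic acid receptor, rose by 2.72 on the log2 scale (limma adjusted p = 2.96e-10). Sema3b, a secreted semaphorin, moved both ways: the TSS 539 bp upstream of the peak fell from 163, 153 and 137 RPM to 55.7, 62.8 and 44.4 RPM (−1.47, limma adjusted p = 2.33e-07), and the one 1923 bp upstream rose from 3.83, 2.92 and 0 RPM to 21.3, 19.2 and 28.4 RPM (3.15, limma adjusted p = 9.99e-05).

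The other lists are read against the 12.9% of all tested TSSs that rose and the 11% that fell. The actin cytoskeleton list had 43 distant TSSs in 9 genes, of which 32 were tested, 6 fell and none rose (median −0.48), among them the Rhoc TSS above and one of Cfl1, the actin-severing protein cofilin (−1.10, limma adjusted p = 4.26e-14). Of 26 tested TSSs of immature and repair genes, 8 rose and 2 fell; the rises were 7 TSSs of Vim and 1 of Id2, and the falls were of Jun and of Tnfrsf12a, the TWEAK receptor, which went from 576, 561 and 619 RPM to 154, 138 and 160 RPM (−1.95, limma adjusted p = 5.05e-13). Of 16 tested AP-1, immediate early and cAMP response TSSs, 6 rose and 2 fell, including Nr4a1, an orphan nuclear receptor (2.74, limma adjusted p = 2.6e-08). In matrix and adhesion genes 1 of 17 tested TSSs rose, that of the collagen gene Col5a3, from 113, 99.6 and 104 RPM to 637, 619 and 764 RPM (2.66, limma adjusted p = 8.91e-15), and 2 fell. In the chaperone and unfolded protein response list 2 of 13 fell, of Atf4 and Ddit3, and of the lipid synthesis list 1 of 2 rose, of Idi1, which isomerises isopentenyl diphosphate. Ribosomal protein genes had 66 distant TSSs in 29 genes, and 4 of 64 tested rose, with a median log2 fold change of 0.40. Of the family's overlapping TSSs 30 of 44 rose, with a median of 0.32. The difference between these classes was not tested, and over all tested TSSs the SE was larger for distant ones (medians above).

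The second comparison asked which distant TSSs depend on SOX10 in S16 cells. Here 766 distant TSSs were tested, 98 of them above the filter in 1 group alone, and 654 were too low. In the clones 79 fell (10.3%, in 44 genes), against 6.55% of all 3875 tested TSSs, and 15 rose (1.96%, in 15 genes), against 1.65%. Without the gene that had the most falls, 56 of 743 fell (7.54%), while the 6.55% still holds that gene. The counts without 1 gene were added after the data were seen. Among overlapping TSSs 5.68% fell and 1.57% rose. Of the 94 distant calls, 49 were of TSSs above the filter in 1 group alone, tested only through the group where they were high, as were 52 of the 166 overlapping calls, so the excess over the background leans on such members. The median log2 fold change was −0.23 for distant, −0.17 for overlapping and −0.18 for all tested TSSs. Median-ratio or TMM scaling moved the last to −0.05 and gave 71 lower and 17 higher distant TSSs. All of the 94 called distant TSSs had groups that did not overlap, which is again not read as further support. Of the 79, 41 had clones at or under 3 reads throughout. Upstream of the peak, 17.5% of 171 fell and 4.09% rose, and downstream 8.24% of 595 fell and 1.34% rose. With 1 TSS per gene, 9.48% of 401 distant and 4.98% of 2067 overlapping TSSs fell. Without parental replicate 1 the calls were 17 lower and 10 higher and without replicate 2 they were 21 and 8. The lone parental library is then assumed to vary like the clones, and a TSS above 1 RPM in parental cells alone no longer passes the filter of 2 libraries, so that 47 of the 79 were not tested. The other 32 had negative fold changes in both fits, with a median log2 fold change of −2.24 and −2.35 against −2.16 with all libraries. DESeq2 on recovered reads gave 64 lower and 38 higher.

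The deepest fall was at Pmp22, whose upstream TSS went from 534 and 514 RPM to 0.178, 0.381, 0.191 and 2.22 RPM (−8.37 ± 0.467, SE, limma adjusted p = 1.54e-05). The Pmp22 TSS overlapping the peak went from a mean of 5855 to 195 RPM. Entpd2, an ectonucleotidase that breaks down ATP outside the cell, fell at chr3:2599228-2599299 from 1680 and 1520 RPM to 11.1, 13.5, 17.6 and 169 RPM (−5.87 ± 0.919, SE, limma adjusted p = 0.00397), and clone 2-2 kept the most. Gm10863, on the strand opposite to Sox10 at chr7:120397970-120398133, fell from 49.9 and 51.4 RPM to 0.051, 0.0254, 0 and 0 RPM (at least 633-fold lower, limma adjusted p = 2.95e-05). A TSS without a symbol at chr10:82582693-82582756, 2844 bp upstream of its peak, fell from 49.8 and 54.3 RPM to 0, 0.0763, 0 and 0.0285 RPM (at least 650-fold lower, limma adjusted p = 2.95e-05). Both were close to silent in all clones and in use in nerve, at 49.9 and 59.3 RPM and at 31.1 and 17.8 RPM.

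Mag and Aatk, whose promoters are printed above, fell as well. The Mag TSS went from 35.6 and 33.6 RPM to 0, 0.0254, 0 and 0 RPM (at least 432-fold lower, limma adjusted p = 4.71e-05), and that of Aatk from 33.7 and 16.9 RPM to 0, 0.0508, 0 and 0 RPM (at least 316-fold lower, limma adjusted p = 0.00017). Dusp15 was low in parental cells, at 1.97 and 3.01 RPM, and 0 in all clones (at least 31.1-fold lower, limma adjusted p = 0.0134). The Egr2 TSS had 21 and 8.4 RPM in parental cells and 3.44, 0.178, 0 and 3.48 RPM in the clones, which did not pass the test (−2.71, limma adjusted p = 0.0622). Erbb3, the neuregulin receptor of Schwann cells, fell from 21.6 and 24.1 RPM to 0.0255, 0, 0 and 0 RPM at a TSS 2506 bp upstream of the peak (at least 285-fold lower, limma adjusted p = 7.85e-05), and the Dhh TSS fell from 29.3 and 30.9 RPM to 1.15, 0.0254, 0 and 0 RPM (−4.67, limma adjusted p = 0.000267).

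Few distant TSSs rose in the clones. Mgst2 went from 2.92 and 4.77 RPM to 189, 265, 160 and 206 RPM (5.41 ± 0.266, SE, limma adjusted p = 7.73e-06), above its level in every control library of primary cells. Arl4a, an Arf-like GTPase, rose at chr6:69538233-69538290, 510 bp from the peak, from 3.19 and 0 RPM to 73, 107, 227 and 60.3 RPM (5.65 ± 0.644, SE, limma adjusted p = 0.000652). Cav1, the coat protein of caveolae, rose at chr4:45203429-45203507 from 15.8 and 9.31 RPM to 179, 130, 140 and 221 RPM (3.65 ± 0.29, SE, limma adjusted p = 7.82e-05). Every clone lay above both parental libraries in these genes, as the rule for naming them required. The other rises named by this rule were in Hspb6, a small heat shock protein (8.36 and 6.17 RPM against 58.8 to 150 RPM, 3.62, limma adjusted p = 0.000276), in Ackr3, a scavenging chemokine receptor (6.99 and 10.1 RPM against 50 to 187 RPM, 3.61, limma adjusted p = 0.0015), and in Cited2 (79.9 and 73.6 RPM against 388 to 721 RPM, 2.85, limma adjusted p = 0.000127).

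By list, and beside the 6.55% of all tested TSSs that fell and the 1.65% that rose, 36 of 59 tested distant TSSs of myelin genes fell and none rose (median −2.09). By gene, a TSS fell in 9 of the 11 genes tested, with the calls again spread unevenly, and among the overlapping TSSs of the list 20 of 30 fell. The summed level of the list's distant TSSs was 1341 and 1351 RPM in parental cells and 114, 79, 93.8 and 174 RPM in the clones. Of the Schwann cell identity genes, both tested TSSs fell, those of Sox10 and Erbb3. Of 15 tested TSSs of the chaperone and unfolded protein response list, 2 rose, of the stress factors Atf4 (1.28, limma adjusted p = 0.0035) and Ddit3 (1.48, limma adjusted p = 0.0159), and none fell. Of 11 tested AP-1 and immediate early TSSs 3 rose and 1 fell, Nr4a1, from 14.8 and 18.5 RPM to 0.0764, 0.0254, 0.109 and 0 RPM (−4.06, limma adjusted p = 0.000175). None of 37 tested actin cytoskeleton, 22 immature and repair or 17 matrix TSSs passed the test.

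**Figure D4:**
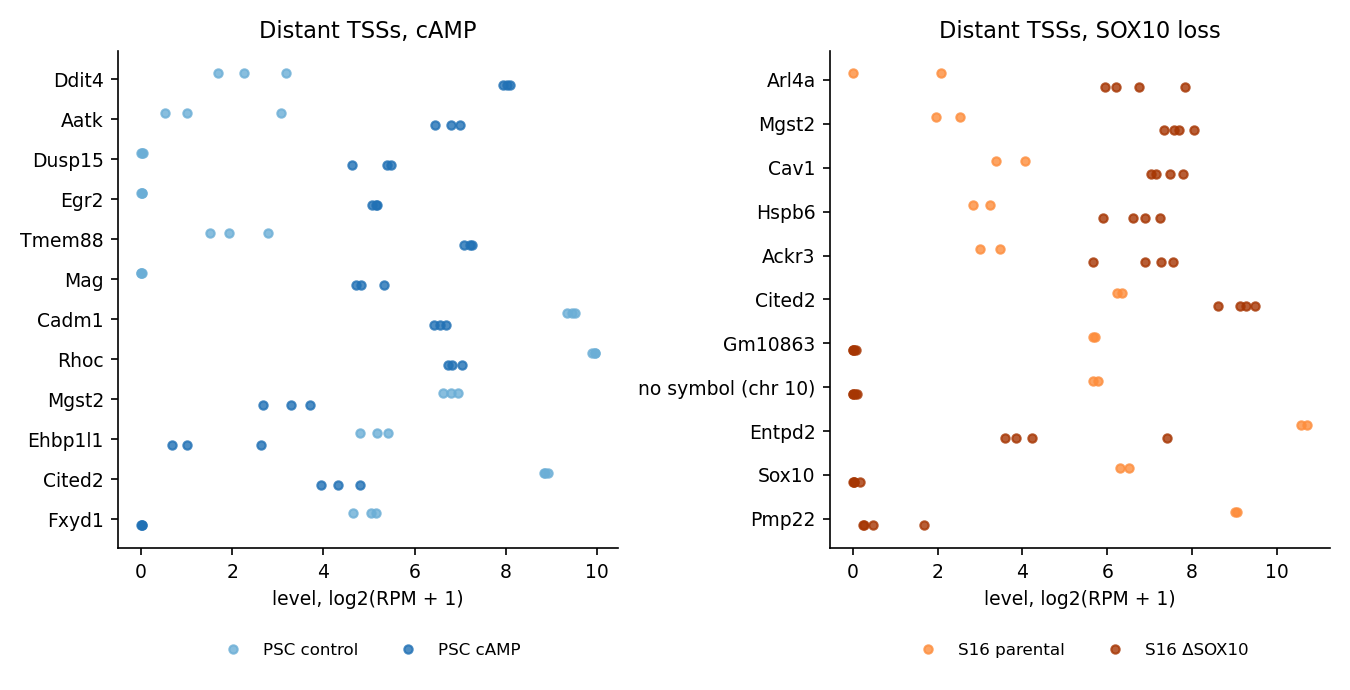
Levels of 12 named distant TSSs in the cAMP and 11 in the S16 comparison (y axis, by gene) as log2(RPM + 1) (x axis), with 1 point per library: primary cells on the left, S16 cells on the right. The TSSs were chosen among calls whose groups do not overlap, so their separation was set by the choice. Mag, Egr2 and Dusp15 sit near 0 in control cells, and Sox10 and Gm10863 sit near 0 in the ΔSOX10 clones.

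The cAMP and S16 comparisons share no library, and 691 distant TSSs were tested in both. Of these, 49 in 22 genes rose with cAMP and fell with SOX10 loss, beside 133 of the 3741 TSSs of any class tested in both. The 49 were unevenly spread over the genes, with many of them in 1 gene, so their share is not read as above that of all classes. Another 6 fell with cAMP and rose with SOX10 loss (Cited2, Hspb6, Mgst2, A3galt2, Ddit3 and Atf4). In both comparisons 3 rose (Npepo, Ier3 and Cav1) and 6 fell (Ugdh, Adgrg1, S100a10, Rassf4, Gamt and Sema3b), while 498 passed neither test. Cav1 went from 0, 0.856 and 0.272 RPM to 7.76, 6.95 and 6.98 RPM with cAMP (2.63, limma adjusted p = 0.000895), below the 108 and 118 RPM of nerve. S100a10 fell from a narrow control range to 1686, 1552 and 1579 RPM (−0.70, limma adjusted p = 1.41e-09) and from 2760 and 2880 RPM to 1610, 1600, 1225 and 1198 RPM in the clones (−1.02, limma adjusted p = 0.00998). Entpd2 rose with cAMP from 25, 23.9 and 34 RPM to 408, 339 and 348 RPM (3.69, limma adjusted p = 2.66e-14).

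Whether a distant TSS moved apart from its gene was tested by setting it against the summed overlapping TSSs of the same gene, as a difference of log2 fold changes. With cAMP, 444 distant TSSs in 180 genes could be tested; 3 were called higher relative to their gene, against 1.05% of all 955 TSSs tested so, and 12 lower in 7 genes, against 2.72%. None of the 20 tested TSSs of Vim or 7 of Pmp22 was called. The Aatk TSS named above rose more than the gene's overlapping TSS, whose mean went from 44.1 to 117 RPM (contrast 3.81, limma adjusted p = 0.0272). Mag passed the same test (2.64, limma adjusted p = 0.0472), but both its distant and its overlapping TSSs were at the floor in control cells, so that no ratio before treatment was measured and the contrast rests on the pseudocount and the treated levels. S100a4, a calcium-binding protein, held 40.2, 42.2 and 40 RPM in control and 63.6, 41.2 and 50.5 RPM in treated cells at 1 of its 6 distant TSSs. Its overlapping TSSs fell from a mean of 4308 to 1322 RPM (contrast 2.02, limma adjusted p = 0.018). The 6 distant TSSs together averaged 94.5 RPM in control and 81 RPM in treated cells. The lower calls were in Sostdc1, Cryab, Plekha4, Egfl8, Etv1, Sat1 and Tomm22, and 9 of the 12 had a group at the floor, where the pseudocount likewise shapes the contrast. These are thin calls: with 1 library left out, 0 or 1 higher and 5 to 7 lower calls were made. With a pseudocount of 0.1 in place of 1 RPM, 1 higher and 4 lower were called, and with 5 RPM, 27 and 60.

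With SOX10 loss, 390 distant TSSs in 172 genes were tested, 41 were called higher relative to their gene, against 8.08% of all 829, and 5 lower, against 2.53%. The 41 came from 6 genes and 30 had a group at the floor. The fall of a low TSS to 0 is capped by the pseudocount on this scale, so that a higher call can come from the starting level alone, and nothing is read from these calls. With a pseudocount of 0.1 in place of 1 RPM, 22 were called higher. Without parental replicate 1 there were 4 higher and 1 lower and without replicate 2 there were 3 and 1, with 33 and 32 of the 41 and 2 of the 5 not tested for the same filter, and every contrast still tested kept its sign. Of the 5 lower calls, 4 were of Pmp22 (−3.42, limma adjusted p = 0.000263), Cryab, a small heat shock protein (−2.32, limma adjusted p = 0.00634), Gnb2, a G protein beta subunit (−2.17, limma adjusted p = 0.0042), and Slc25a4, the mitochondrial ADP and ATP carrier (−1.69, limma adjusted p = 0.045). The other, of Plekhb1 (−1.77, limma adjusted p = 0.023), had its distant and overlapping TSSs at the floor in the clones, so that it rests on the parental levels and the pseudocount. The Pmp22 TSS 1546 bp upstream fell more steeply than the TSSs at the peak, whereas with cAMP its rise of 3.30 did not differ by the same test from theirs (contrast 0.29, limma adjusted p = 0.863).

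Markers of other cell types were few among the distant TSSs. Of the 3 fibroblast marker genes in the table Col1a1 alone had them, 8 TSSs that summed to 130 and 135 RPM in nerve, 803, 898 and 909 RPM in control, 463, 370 and 466 RPM in treated, 2828 and 2254 RPM in parental and 2971 to 5302 RPM in ΔSOX10 cells, so these starts were higher in every culture library than in nerve. Pdgfrb, the single mural cell gene in the table, had 2 TSSs with 30.6 and 54.8 RPM in nerve, 1.91, 0.779 and 1.03 RPM in control and 27.3, 22.4 and 29.6 RPM in treated cells. Csf1r, the single immune gene and the receptor that macrophages need, was read at 4.82 and 1.07 RPM in nerve and at 0 in all but 1 culture library, which had 0.966 RPM. Cfd, the single adipocyte gene, was read at 77.6 and 38.1 RPM in nerve and 0 in all 6 primary cell libraries. No distant TSS belonged to the endothelial, muscle, neuronal or perineurial marker lists, and the part of other cells in the nerve values was not tested.

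At the far end, the 3 widest gaps belonged to 2 Col1a1 TSSs, 8929 and 8482 bp downstream, and to one of Nr2f2 (COUP-TFII, a nuclear receptor), 8713 bp downstream. All were low, at 2.64 and 6.67 RPM, 1.51 and 5.58 RPM and 5.65 and 4.14 RPM in the nerves, and none passed either test. By distance, the share of tested TSSs that rose with cAMP was 11.8% for gaps under 1000 bp, 16.6% up to 2000 bp, 13.9% up to 4000 bp and 17.6% beyond, with no steady order. Over the same gaps, 5.77%, 13.9%, 11.1% and 9.3% fell with SOX10 loss, beside 6.55% of all tested TSSs. Many of the calls at gaps of 1000 to 2000 bp, in both comparisons, were in 1 gene.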

How the data were processed

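The authors sequenced the Tn5Prime libraries on HiSeq 4000 (nerve, S16) or NovaSeq (primary cells) instruments, trimmed reads with Cutadapt, mapped them to rn5 with STAR, clustered read starts with Paraclu and counted them per TSS with featureCounts. The deposited values are RPM per TSS and library, for TSSs that the authors kept because they lay within 1 kb of a nerve H3K4me3 peak which itself overlapped a SOX10 peak. The deposited log2 fold changes and FDR-adjusted p-values of the authors' own comparisons were not used.

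Since RPM are not counts, limma 3.58.1 (R 4.3.3, eBayes with trend) was fitted to log2(RPM + 1) within each comparison in place of the study's edgeR test. A TSS was tested where 2 or more libraries of the fit exceeded 1 RPM, and p-values were adjusted over all tested TSSs (Benjamini-Hochberg, 0.05). Log2 fold changes are on the log2(RPM + 1) scale and understate those of low TSSs. Within-gene contrasts fitted the difference between a TSS and the sum of the other overlapping TSSs of its gene.

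Values that were not rounded are multiples of 1 read's worth, which gave the library totals. Within 0.02 reads, 100% of values were whole in the nerve and primary cell libraries and 91.6% to 100% in the S16 libraries, 4 of which hold values rounded to 3 digits. On recovered reads, edgeR 4.0.16 (quasi-likelihood) called 99 distant TSSs higher and 48 lower with cAMP, and 13 and 56 with SOX10 loss. Floors cover counting error only, and PCR copies count as reads. The p-values measure the spread between these libraries, which for the parental cells is between RNA samples of 1 line.

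The class and all gene lists were chosen with earlier results of these data known. Named are the 6 distant TSSs highest in nerve, the 3 with the widest gaps, per comparison and direction the 6 called TSSs with separate groups that moved most, given 10 RPM or more in the higher group, up to 5 per within-gene contrast, and members of the lists. A gene that the rule names is not reported here. Other TSSs were named after their values were seen. Alternatives were other pseudocounts, filters, scalings, gap limits and tests, each library left out, all 14 libraries in 1 model, 1 TSS per gene and a replicate block. Steps were tested on simulated data. Gene positions on rn5 were not annotated here beyond the deposited symbols.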

Additional observations from a re-analysis of the deposited data

Results flagged for a closer look

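Among 19 named TSSs checked for a clone that stood apart from the other ΔSOX10 clones, 4 had one. Chance gives such a result in about 1 of 20 groups of normally distributed values. RPM, some of them near the floor, need not be distributed so, and their rate was not measured. The Cadm1 TSS gave 62.5 RPM in clone 2-2, against 1.32, 2.8 and 3.58 RPM in the others and 14.6 and 9.25 RPM in parental cells. Entpd2 gave 169 RPM in the same clone, against 11.1, 13.5 and 17.6 RPM, and remained below the parental 1680 and 1520 RPM. The Col1a1 TSS with the widest gap gave 32.6 RPM in clone 2-1, against 12, 12.3 and 11.6 RPM. Fxyd1 gave 8.26 RPM in clone 1-1, against 0.0254, 0 and 0.0285 RPM. None of these differences between clones was tested.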

How the results depend on the processing

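With SOX10 loss, the 79 lower distant TSSs became 41 at a mean of at least 5 RPM and between 17 and 76 with a library left out, and the 15 higher became 38 with DESeq2 and between 8 and 15 with a library left out. The share that rose (1.96%) was 1.19% at gaps of at least 1000 bp and 3.24% with 1 TSS per gene. In the within-gene contrasts with cAMP, the 3 higher became 1 with a pseudocount of 0.1 RPM, 27 with one of 5 RPM and between 0 and 1 with a library left out, and the 12 lower became 4, 60, 2 at a mean of at least 5 RPM, and between 5 and 7. With SOX10 loss, the 41 higher became 22 with a pseudocount of 0.1 RPM, 7 at a mean of at least 5 RPM and between 3 and 41 with a library left out, and the 5 lower became 12 with a pseudocount of 5 RPM, 2 at a mean of at least 5 RPM and between 1 and 6. The nerve median of 3.89 RPM was 3.65 or 4.92 RPM in a single nerve, and the overlapping median of 10.9 RPM was 13.1 RPM with 1 TSS per gene. Without a parental library, 47 of the 79 were no longer tested. The cause of the other moves was not tested. The cAMP counts, 124 higher and 65 lower, stayed within 1.5 times under the other settings run, and were 95 to 112 and 44 to 60 with a library left out. The 24 results for TSSs named by the size of their response in a comparison kept their direction and their side of the threshold in all 387 values that could be recomputed. A named TSS that failed the filter of a setting gave no value there. That was so without a parental library for TSSs such as that of Gm10863, which was above 1 RPM in parental cells alone. The 387 values do not cover the within-gene contrasts or the TSSs named from lists.

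The primary cell libraries share replicate numbers, but same-numbered libraries hardly deviated together (correlations of 0.0294, 0.00751 and 0.0379), so the numbers were not taken as pairs. With a replicate block, 127 distant TSSs rose and 67 fell with cAMP, and the within-gene contrast gave 2 and 13. The S16 groups share no replicate numbers.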
